A study of Mus musculus with 36 samples.

Results

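The genes described here encode contractile and sarcomeric proteins of slow (type I) muscle fibres. They are Myh7, Myl2, Myl3, Tnnc1, Tnni1, Tnnt1, Tpm3, Atp2a2, Myoz2 and Csrp3. Each was read from the probe set whose only gene symbol is that of the gene, taking the probe set with the highest mean over the 36 arrays where there were several. All 10 genes were found among 19938 genes with such a probe set. Levels are log2 values per probe set, so a difference of 1 is a doubling, and levels of different probe sets are not compared with each other.

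The animals were male C57Bl/6 mice, either wild type or Myc+/-, with 1 inactivated allele of Myc, killed at 5 or 24 months of age. No other allele or treatment is named in the labels. Equal amounts of RNA from several mice were mixed, so each combination of tissue (liver, skeletal muscle, white adipose), age and genotype was 1 RNA pool. Each of the 12 pools was hybridised to 3 technical arrays (Affymetrix Mouse Gene 1.0 ST). The pools held RNA of 6 wild type and 5 Myc+/- mice at 5 months and of 5 wild type and 8 Myc+/- mice at 24 months, and the same animals gave all 3 tissues. The labels do not name the muscle that was dissected, which part of Myc was inactivated, or which of 2 homogenization methods each tissue fragment had. In such bulk samples, fewer slow fibres and less of these RNAs per fibre cannot be told apart.

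A muscle fibre shortens when myosin heads of the thick filament pull on actin in the thin filament. Calcium released from the sarcoplasmic reticulum binds troponin C, which moves tropomyosin off the myosin binding sites, and a calcium pump then returns the calcium. Slow and fast fibres use different genes for most of these parts. Slow fibres are fatigue-resistant and rich in mitochondria, and in mice they are concentrated in a few postural muscles such as the soleus, so the slow fibre content of a sample depends on which muscle is taken. Several of the slow fibre genes are also the genes of the heart ventricle.

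The promoters of 4 of these genes are shown because, among members that fell with age in muscle, they hold every kind of motif searched. RefSeq promoters (GRCm38.p6) were found for 9 of the 10 genes, and the 250 bases before the most upstream listed start were searched on both strands. The motifs were the MEF2 consensus, the CArG box (the site of serum response factor), the M-CAT element CATTCC (bound by TEAD factors) and the E-box CAGCTG (bound by MyoD family factors). Matches are in capitals, no 2 matches overlapped, and all sequences run 5′ to 3′ on the strand of the gene.
Myh7, at chr14:54994627-54994876 on the minus strand, holds M-CAT in reverse.
Myh7: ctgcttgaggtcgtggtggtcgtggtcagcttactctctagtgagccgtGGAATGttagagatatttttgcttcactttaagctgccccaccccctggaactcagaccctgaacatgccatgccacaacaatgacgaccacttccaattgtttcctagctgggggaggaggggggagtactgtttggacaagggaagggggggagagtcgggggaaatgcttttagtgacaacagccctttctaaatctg
Myl3, at chr9:110763428-110763677 on the plus strand, holds M-CAT on each strand and a CArG box.
Myl3: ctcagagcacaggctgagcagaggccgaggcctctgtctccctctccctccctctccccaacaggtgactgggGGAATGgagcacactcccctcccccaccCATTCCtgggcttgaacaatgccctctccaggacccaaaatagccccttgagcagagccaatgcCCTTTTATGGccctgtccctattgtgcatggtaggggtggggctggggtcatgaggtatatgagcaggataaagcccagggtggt
Tnnc1, at chr14:31208062-31208311 on the plus strand, holds M-CAT in reverse.
Tnnc1: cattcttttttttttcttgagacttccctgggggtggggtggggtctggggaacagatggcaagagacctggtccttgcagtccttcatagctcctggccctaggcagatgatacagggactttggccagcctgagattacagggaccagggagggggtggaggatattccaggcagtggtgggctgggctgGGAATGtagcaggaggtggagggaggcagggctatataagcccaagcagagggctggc
Myoz2, at chr3:123034988-123035237 on the minus strand, holds a MEF2 match and then the E-box close to the start.
Myoz2: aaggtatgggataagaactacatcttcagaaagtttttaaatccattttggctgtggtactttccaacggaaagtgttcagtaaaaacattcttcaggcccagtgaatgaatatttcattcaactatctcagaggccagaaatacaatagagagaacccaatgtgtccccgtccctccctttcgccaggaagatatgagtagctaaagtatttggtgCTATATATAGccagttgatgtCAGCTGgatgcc
M-CAT was found in 3 of the 9 promoters and in 12.6% of all 32851 promoter windows of this length. The E-box was found in 3 of 9, in Tnni1, Tpm3 and Myoz2, against 13% of all windows. The MEF2 consensus was found in 1 of 9 against 2.92%, and the CArG box in 1 of 9 against 1.47%. Myl2, Tnnt1 and Csrp3 held none of these letters in the window. These matches are letters in a window and not measured binding sites.

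Each array correlated with the other arrays of its own pool at a mean of 0.994 to 0.997, array medians lay between 6.95 and 7.14, and the median spread of the 3 arrays was 0.0956 (SD) in muscle. The targeted gene, Myc, was lower in the Myc+/- pool in 6 of 6 tissue and age pairs, by log2 differences of -0.24 to -0.82, and the arrays of the genotypes did not overlap in any pair. In muscle, Myc read 8.96 ± 0.05 at 5 and 9.20 ± 0.11 at 24 months in wild type, against 8.48 ± 0.11 and 8.37 ± 0.10 in Myc+/- (SD, n = 3 arrays).

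Most members were far higher in muscle than in the other tissues. Against liver, 9 of 10 were higher in muscle (34.3% of the 21789 probe sets tested were) and 1 was lower (32.8% were). Against adipose, 9 of 10 were higher (27.1% of all) and 1 was lower (36.7% of all). These calls come from limma on the 12 pool means, with an adjusted p under 0.05. Myoz2 differed from liver by 6.58 ± 0.09 (log2 difference ± SE), and its 12 arrays read 11.29 to 12.46 in muscle, 5.04 to 5.69 in liver and 5.02 to 5.49 in adipose. The 6 others of the 7 muscle-restricted members were 4.06 to 5.78 higher in muscle than in liver and 4.13 to 5.70 higher than in adipose. The share of all probe sets without overlap between tissues was not counted. These 7 genes were set apart by their levels, so the lack of overlap of their muscle arrays with another tissue is a description only. Their medians in liver and adipose lay below the filter cutoffs of those tissues (6.87 and 6.99), where a probe may be at background, so the sizes of these differences are not exact and their order is not read.

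The exceptions were Atp2a2, Csrp3 and Tpm3. Atp2a2 (SERCA2, the calcium pump of slow fibres and heart, with a second isoform made in most cells) read 12.09 to 12.71 in muscle, 11.48 to 12.43 in liver and 11.37 to 11.69 in adipose. Its muscle and liver ranges overlapped. Csrp3 (muscle LIM protein) read 9.29 to 11.33 in muscle, 8.77 to 9.04 in liver and 6.23 to 6.92 in adipose, so liver stood well above adipose without reaching muscle. The Tpm3 probe set with the highest mean was lower in muscle than in liver by a log2 difference of -0.29 ± 0.05 and than in adipose by -0.62 ± 0.05. Another Tpm3 probe set was 3.53 ± 0.10 higher in muscle than in liver and is described below with the thin filament.

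**Figure D1:**
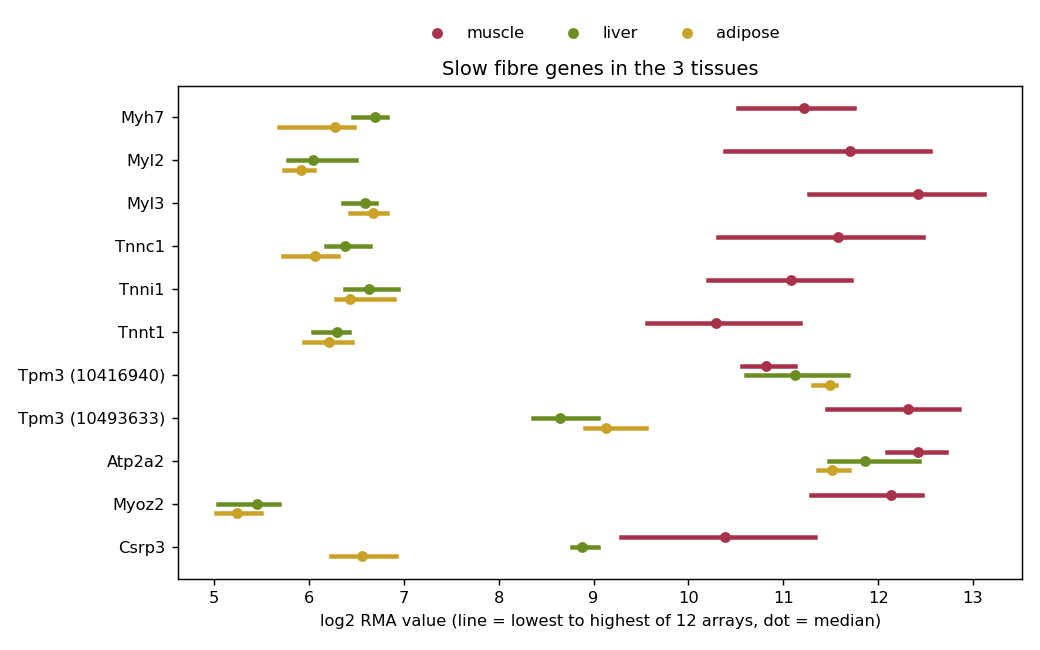
Levels of the slow fibre genes in muscle, liver and adipose, on the log2 scale of the deposited values; a line spans the lowest to the highest of 12 arrays and the dot is the median. The 7 genes other than Tpm3, Atp2a2 and Csrp3 sit far to the right in muscle only, while Atp2a2 and the Tpm3 probe set 10416940 overlap between tissues.

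In muscle, the slow fibre genes were lower at 24 than at 5 months. With both genotypes averaged, 8 of 10 fell (19.0% of the 13073 probe sets tested in muscle fell) and 1 rose, Tpm3 by its chosen probe set (23.5% of all rose). The remaining member, Atp2a2, did not pass. All 10 members passed the filter on low values, since each muscle mean lay above the cutoff of 6.91. The median log2 age difference of the 10 was -0.99 (0.02 over all 13073). The 6 arrays of 24 months lay below all 6 arrays of 5 months in 8 of 10 members (17.0% of all) and above them in 1, Tpm3 (21.5% of all). From the highest to the lowest pool, these 8 genes had the order wild type 5 months, Myc+/- 5 months, Myc+/- 24 months, wild type 24 months.

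**Figure D2:**
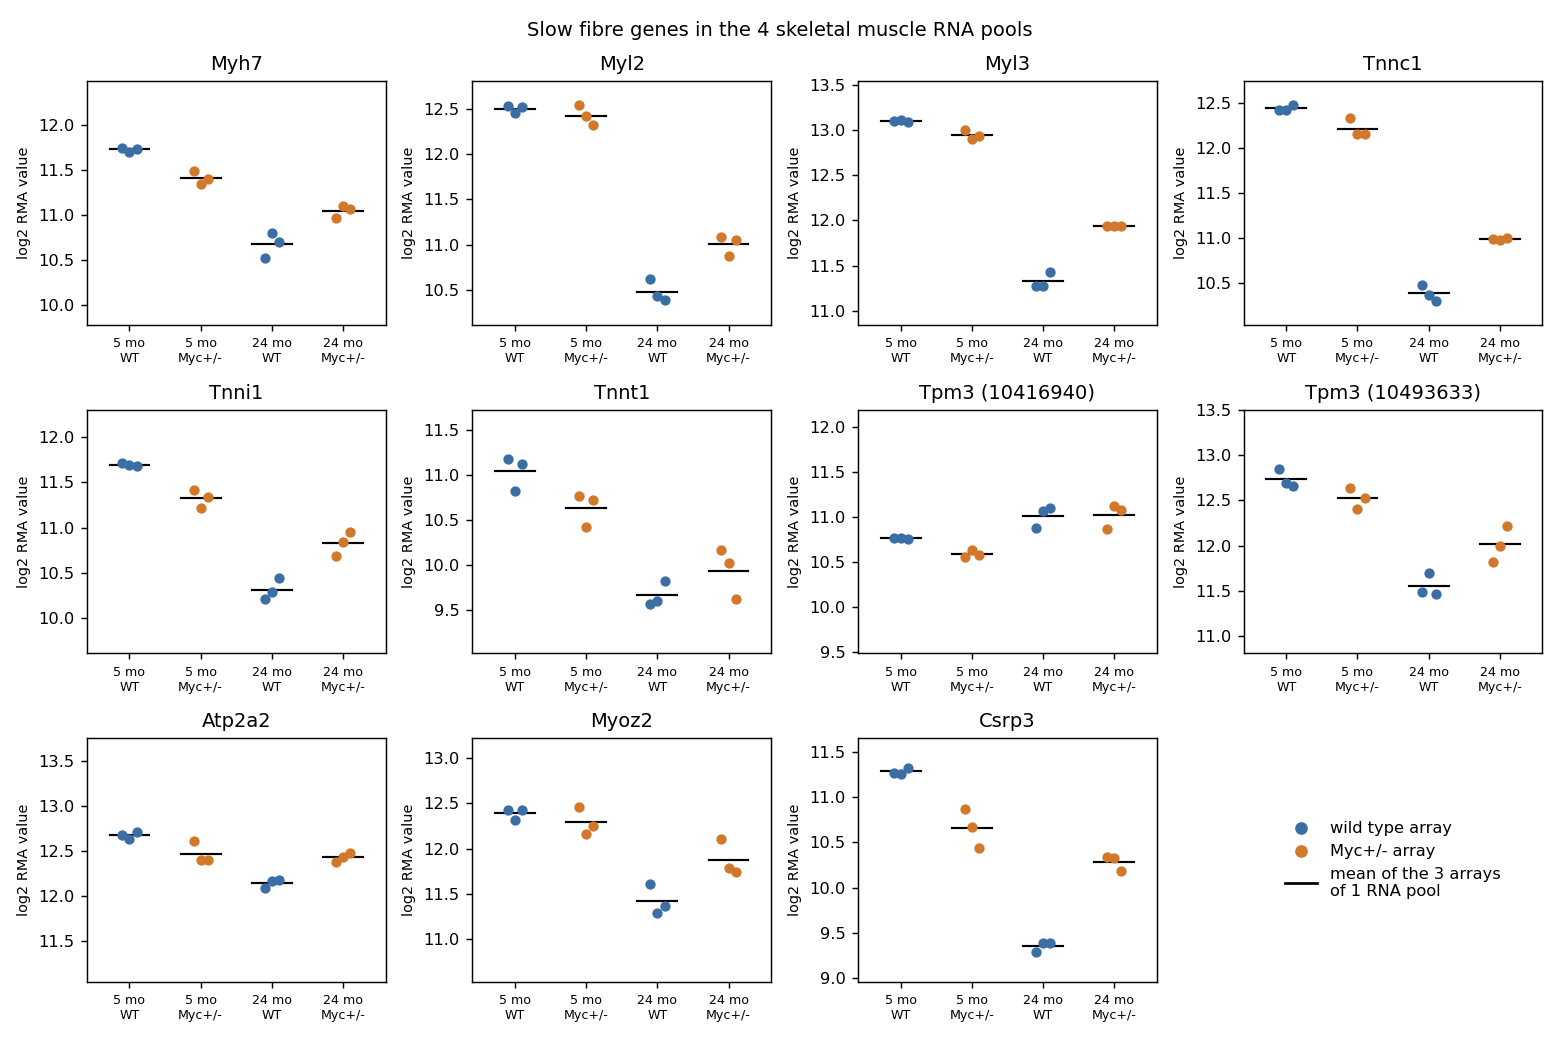
Log2 values of each slow fibre gene in the 12 muscle arrays, by RNA pool; points are technical arrays and the black line is the mean of 3, and every panel spans about the same log2 range. In 8 genes, and in the Tpm3 probe set 10493633, all 24-month arrays sit below all 5-month arrays, and the wild type 24-month pool has the lowest mean.

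All 3 thick filament genes fell with age. Myh7 encodes the slow (beta) myosin heavy chain, the motor itself. It read 11.74, 11.70 and 11.73 in the 5-month wild type pool and 11.49, 11.34 and 11.39 in the 5-month Myc+/- pool. At 24 months it read 10.52, 10.80 and 10.70 in wild type and 10.97, 11.10 and 11.06 in Myc+/-. The 2 genotypes were separate at each age and crossed over, Myc+/- being the lower at 5 months and the higher at 24. Averaged over genotype, Myh7 fell by 0.71 ± 0.15 (SE), or 1.63-fold (adjusted p = 0.00845).

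Myl2, the slow and ventricular regulatory light chain, had the largest age difference of the members. It read 12.53, 12.45 and 12.52 in wild type, against 12.54, 12.42 and 12.32 in Myc+/-, at 5 months. At 24 months it read 10.62, 10.43 and 10.38 in wild type and 11.08, 10.87 and 11.05 in Myc+/-. The young pools overlapped and the old pools did not. Myl2 fell by 1.73 ± 0.14 on the log2 scale, 3.31-fold (adjusted p = 2.85e-04), which ranked 7 among all probe sets that were lower at 24 months.

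Myl3, the slow and ventricular essential light chain that stabilises the myosin lever arm, read 13.10, 13.12 and 13.09 in wild type, against 13.00, 12.90 and 12.94 in Myc+/-, at 5 months. At 24 months its wild type arrays read 11.27, 11.28 and 11.43 and its Myc+/- arrays 11.94, 11.94 and 11.94. The 3 old Myc+/- arrays were nearly identical and clear of wild type. Myl3 fell by 1.39 ± 0.16, or 2.62-fold (adjusted p = 7.6e-04).

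Among the troponin genes, Tnnc1 fell most. Tnnc1 encodes the calcium-binding troponin C of slow fibres and heart. It read 12.42, 12.42 and 12.47 in wild type, against 12.33, 12.15 and 12.16 in Myc+/-, at 5 months. The 24-month arrays read 10.48, 10.37 and 10.31 in wild type and 10.99, 10.98 and 11.00 in Myc+/-. No 2 pools overlapped. The age difference was -1.64 ± 0.17, a 3.11-fold fall (adjusted p = 5.33e-04) that ranked 10 among the probe sets lower at 24 months.

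Tnni1, the slow inhibitory subunit, had pool means of 11.70 ± 0.01 in wild type, against 11.32 ± 0.10 in Myc+/-, at 5 months, and 10.31 ± 0.12 and 10.83 ± 0.13 at 24 months (SD, n = 3 arrays). It fell by 0.94 ± 0.18 (SE) on the log2 scale, 1.92-fold (adjusted p = 0.0054). Tnnt1, the slow tropomyosin-binding subunit, had means of 11.04 ± 0.19 and 10.63 ± 0.19 at 5 months and 9.66 ± 0.14 and 9.93 ± 0.28 at 24 months, in the same order of groups. Its arrays were the most scattered among the troponins, and at 24 months the genotypes overlapped. Tnnt1 fell by 1.04 ± 0.15 (SE), 2.06-fold (adjusted p = 0.00191).

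Tpm3 gave opposite answers from different probe sets. The gene makes the slow skeletal tropomyosin and, from another promoter, short tropomyosins of the cytoskeleton found in most cells. Its symbol is carried alone by 4 probe sets. The one with the highest mean, 10416940, is annotated with 13 transcript accessions, and 10493633 with only 3 of those 13. RefSeq also lists 3 Tpm3-related pseudogenes. Whether the probes also bind RNA of near-identical copies was not examined, so the Tpm3 values are uncertain.

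By probe set 10416940, Tpm3 read 10.77, 10.77 and 10.76 in wild type, against 10.56, 10.63 and 10.58 in Myc+/-, at 5 months, and 10.88, 11.07 and 11.10 against 10.87, 11.12 and 11.08 at 24 months. It rose by 0.34 ± 0.07, 1.27-fold (adjusted p = 0.00693). By probe set 10493633, Tpm3 read 12.85, 12.70 and 12.66 in wild type, against 12.63, 12.40 and 12.53 in Myc+/-, at 5 months, and 11.48, 11.70 and 11.46 against 11.82, 12.00 and 12.22 at 24 months. This second probe set was the muscle-enriched one, and it fell by 0.85 ± 0.14, 1.80-fold (adjusted p = 0.00306), with the same order of pools as the other falling members. The other two probe sets differed by 0.13 ± 0.11 and 0.08 ± 0.07 with age and did not pass (adjusted p = 0.361 and 0.337).

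Atp2a2 was the member with the smallest age difference. It read 12.68, 12.64 and 12.71 in wild type, against 12.61, 12.40 and 12.40 in Myc+/-, at 5 months, and 12.09, 12.17 and 12.19 against 12.38, 12.43 and 12.48 at 24 months. The wild type pools were well apart, while the Myc+/- pools of the 2 ages overlapped. The averaged difference was -0.28 ± 0.12 (adjusted p = 0.0912, 95% interval -0.56 to -0.01 before adjustment). Without either Myc+/- muscle pool it was -0.53, the wild type change alone. It passed by the same limma fit without the third array of each pool (-0.31, adjusted p = 0.0493).

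The Z-disc members fell as well. Myoz2 (calsarcin-1) ties calcineurin to alpha-actinin in slow fibres and heart. It had means of 12.39 ± 0.07 in wild type, against 12.29 ± 0.15 in Myc+/-, at 5 months, and 11.42 ± 0.16 and 11.88 ± 0.20 at 24 months (SD, n = 3 arrays). Myoz2 fell by 0.69 ± 0.13 (SE), 1.62-fold (adjusted p = 0.00534). The young pools overlapped and the old pools did not.

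Csrp3, a LIM domain protein of the Z-disc linked to mechanical stress, showed the widest gap between genotypes. It read 11.27, 11.26 and 11.33 in wild type, against 10.87, 10.67 and 10.44 in Myc+/-, at 5 months. At 24 months it read 9.29, 9.39 and 9.39 in wild type and 10.34, 10.33 and 10.18 in Myc+/-. No 2 pools overlapped, and the old Myc+/- pool lay close under the young one. Averaged over genotype, Csrp3 fell by 1.15 ± 0.30, 2.23-fold (adjusted p = 0.0185), with the largest SE of the members. Csrp3 did not pass when the muscle pools were fitted alone (adjusted p = 0.0664).

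With 1 muscle pool left out, the age difference is that of the other genotype alone. Muscle then adds no spread to the fit, and its error comes from liver and adipose only. Sizes are therefore given for such fits and no call is read. Without either wild type pool the age difference was -1.43 for Myl2, -1.005 for Myl3, -1.22 for Tnnc1, -0.50 for Tnni1 and -0.70 for Tnnt1. Without either Myc+/- pool it was -2.03, -1.78, -2.05, -1.39 and -1.38, in the same order. For Myh7, Myoz2 and Csrp3 the difference was smaller without either wild type muscle pool, at -0.36, -0.42 and -0.38. The rise of Tpm3 by probe set 10416940 was 0.25 without either Myc+/- pool.

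No member differed between genotypes when the ages were averaged. By the same pool-level fit, 0 of 10 members and 0% of all 13073 probe sets passed, with 666 probe sets and 0 members at an unadjusted p under 0.05. The log2 difference of Myc+/- minus wild type ran from -0.08 to 0.23 over the 10 members, with a median of 0.11 (-0.01 over all). For Myh7 it was 0.02 ± 0.15, with a 95% interval of -0.32 to 0.37. The interval for Csrp3 was wider, -0.55 to 0.85. Without either 5-month muscle pool the genotype difference was that at 24 months alone, 0.93 for Csrp3, and muscle added no spread to the error. In the fit of all pools, a genotype difference of opposite sign at the 2 ages enters the error.

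Setting 1 pool against another showed that opposite sign. These comparisons rest on the spread of technical arrays (limma on the 36 arrays, called at an adjusted p under 0.05 and at least 1.5-fold), so they compare RNA mixtures and say nothing of how mice of a group vary. The 5 comparisons share the same 4 pools. Between the wild type pools, 8 of 10 members fell with age (4.83% of all probe sets), every one but Tpm3 and Atp2a2, with a median of -1.38. Between the Myc+/- pools, 4 of 10 fell (3.93% of all), namely Myl2, Myl3, Tnnc1 and Tnnt1, with a median of -0.46. At 5 months 1 of 10, Csrp3, was lower in Myc+/- (0.405% of all), and at 24 months 3 of 10 were higher in Myc+/- (0.268% of all), namely Csrp3, Myl3 and Tnnc1. All 10 differences were negative at 5 months and all 10 positive at 24 months, with medians of -0.22 and 0.49 (-0.008 and -0.005 over all). Tpm3 was barely positive at 24 months, at 0.008. Of 19 other slow or oxidative fibre genes, 16 were negative at 5 months and 16 positive at 24 months. Of 24 oxidative phosphorylation genes these were 12 and 23, and of 15 fast fibre genes 5 and 7. The genes of a list were read from the same pools, so their signs are not independent. Without the third array of each pool, Tnnt1 lost its call between the Myc+/- pools, Csrp3 at 5 months and Tnnc1 at 24 months.

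**Figure D3:**
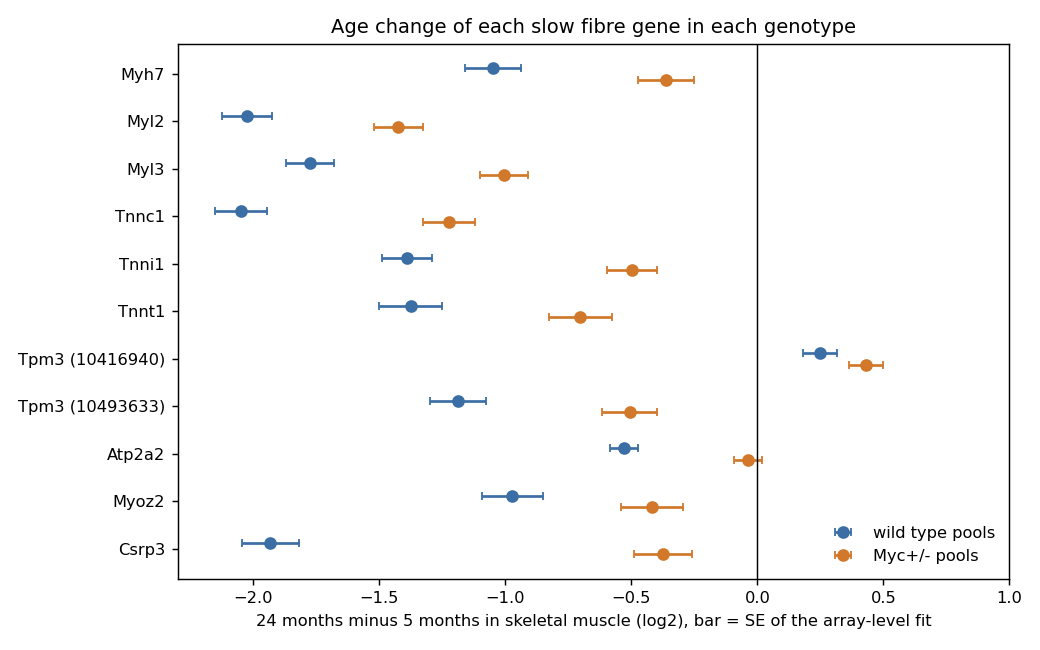
Age difference (24 minus 5 months, log2) of each slow fibre gene between the 2 wild type pools and between the 2 Myc+/- pools of muscle; bars are the SE of the array-level fit. The Myc+/- point lies to the right of the wild type point in every row, furthest for Csrp3, at -0.38 against -1.93.

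The smaller fall in the Myc+/- pools was itself tested as a difference of differences. It passed for 7 of 10 members (0.780% of all passed in this direction), and all 10 were positive (median 0.68, -1e-04 over all). The sign was not particular to the members. It was also positive for 24 of 24 oxidative phosphorylation genes (median 0.09), 17 of 19 other slow or oxidative fibre genes (0.26) and 7 of 7 heart genes (0.30). Of fast fibre genes 5 of 15 were positive, and of general skeletal muscle markers 6 of 11. Csrp3 led with 1.56 ± 0.16 (adjusted p = 5.8e-09). Tnni1 followed with 0.89 ± 0.14, Tnnc1 with 0.83 ± 0.15, Myl3 with 0.77 ± 0.13, Myh7 with 0.69 ± 0.16, Tnnt1 with 0.67 ± 0.18 and Myl2 with 0.60 ± 0.14. Atp2a2 differed by 0.49 ± 0.08 (adjusted p = 3.34e-05), below the required fold, Myoz2 by 0.55 ± 0.17 (adjusted p = 0.0571) and Tpm3 by 0.18 ± 0.10 (adjusted p = 0.404). The muscle-enriched Tpm3 probe set gave 0.68 ± 0.16 (adjusted p = 0.0044). Csrp3, Tnni1, Tnnc1 and Myl3 passed without any 1 array number, while Myh7, Myl2 and Tnnt1 each lost the call without 2 of the 3.

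Expressed as a share, the log2 age change of the Myc+/- pools was 70.4% of the wild type change for Myl2, 59.7% for Tnnc1, 56.6% for Myl3 and 51.1% for Tnnt1. It was 42.9% for Myoz2, 35.8% for Tnni1, 34.6% for Myh7 and 19.4% for Csrp3. No share is read for Atp2a2, whose Myc+/- pools differed by -0.04 ± 0.06 (adjusted p = 0.604). No error was computed for these shares, so their order is not read.

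The arrays of the genotypes were also compared directly at each age. The 3 Myc+/- arrays lay above the 3 wild type arrays at 24 months in 8 of 10 members (8.54% of all), all but Tnnt1 and Tpm3. At 5 months they lay below in 8 of 10 (13.2% of all), all but Myl2 and Myoz2.

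Of 15 fast fibre genes 2 rose and 1 fell with age in the pool-level fit, with a median of 0.05. For this and the lists that follow, the background is that 23.5% of all 13073 probe sets rose, 19.0% fell and the rest did not pass. Myh4, Myh1 and Myh2, the fast myosin heavy chains, differed by 0.03 ± 0.11, 0.09 ± 0.19 and -0.33 ± 0.21, and none passed. Of the fast genes that passed, Mylpf (fast regulatory light chain) fell by 0.49 ± 0.08 (adjusted p = 0.00352), Mybpc2 (fast myosin binding protein C) rose by 0.47 ± 0.07 (adjusted p = 0.00237) and Tpm1 rose by 0.35 ± 0.05 (adjusted p = 0.00215). No fast gene passed in any of the 5 comparisons between single pools. The difference between a slow gene and its fast partner was not tested. On average the 15 fast genes were very bright, where differences may be compressed. Their mean stayed between 13.8 and 13.9 in the 4 pools. Single genes could differ from it, and Myh2 had the pool order of the falling members. It read 13.45 and 13.25 at 5 months and 12.91 and 13.12 at 24 months, wild type first.

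**Figure D4:**
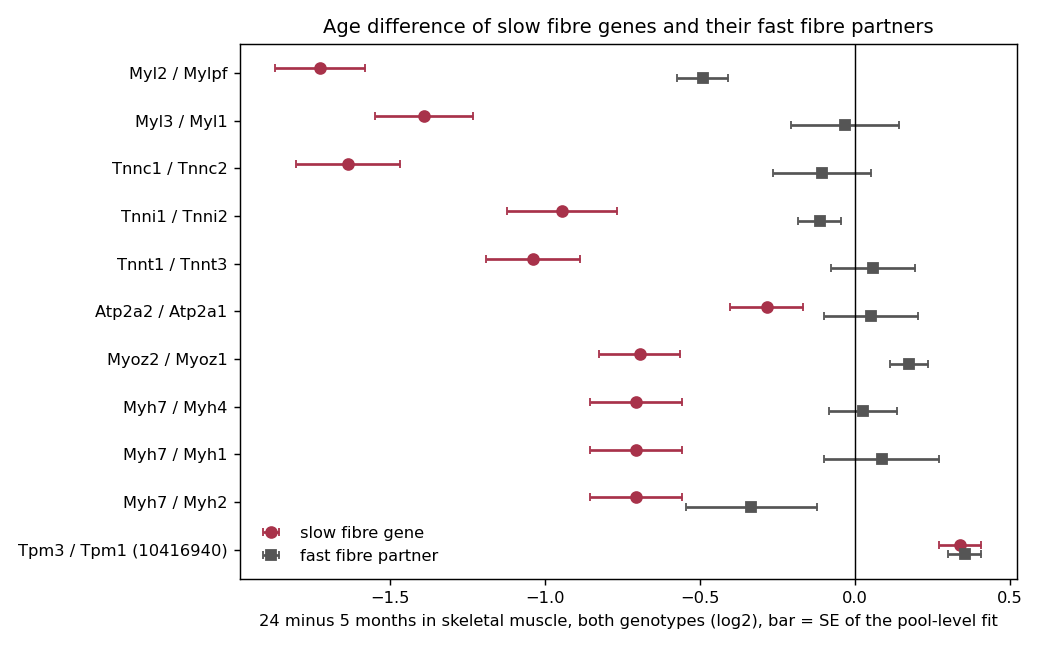
Age difference in muscle averaged over genotype (log2, 24 minus 5 months) of each slow fibre gene and its fast fibre partner; bars are the SE of the pool-level fit. Slow genes from Myl2 to Myoz2 lie left of their partners, of which Mylpf, at -0.49, and Myh2, at -0.33, lie furthest left, and Tpm3 by probe set 10416940 lies with Tpm1.

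Of 11 genes that mark skeletal muscle as a whole, 1 rose and 1 fell with age, with a median of 0.14. Their mean over the 4 pools stayed between 13.5 and 13.6, also a bright level where differences may be compressed. Tcap (telethonin, a Z-disc cap of titin) fell by 0.50 ± 0.07 (adjusted p = 0.00191) and Des (desmin) rose by 0.22 ± 0.07 (adjusted p = 0.0399). Tcap had the pool order of the falling members. It read 12.62 and 12.53 at 5 months and 12.01 and 12.14 at 24 months, wild type first.

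Of 19 other slow or oxidative fibre genes tested, 3 rose and 3 fell with age, with a median of -0.13. Pdlim1, a PDZ-LIM protein of the actin cytoskeleton, fell by 0.79 ± 0.07 (adjusted p = 3.94e-04), and Myl6b, a slow essential light chain, fell by 0.56 ± 0.10 (adjusted p = 0.00493). Ankrd1, a stress-responsive titin-binding protein, rose by 1.13 ± 0.07 (adjusted p = 1.18e-04), and Cd36, a fatty acid transporter, rose by 0.38 ± 0.11 (adjusted p = 0.0308). Of 24 oxidative phosphorylation genes, 12 fell and 4 rose, with a median of -0.21. Ndufb8 of complex I fell by 1.04 ± 0.08 (adjusted p = 2.11e-04) and Cox5a of complex IV by 0.78 ± 0.06 (adjusted p = 2.16e-04). The fall of this list was not particular to muscle. In liver 13 of the 24 fell and 3 rose (median -0.24), where 2258 of 13073 probe sets fell. In adipose 11 fell and 1 rose (median -0.20), where 1872 of 13073 fell.

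Of 27 genes known to control slow fibre genes, 7 rose and 9 fell with age, with a median of -0.05, against 23.5% and 19.0% of all probe sets; nothing is read from these counts about the list. Mef2a, a MEF2 transcription factor, rose by 0.83 ± 0.05 and Ppp3cb, a catalytic subunit of calcineurin, by 0.79 ± 0.06 (adjusted p = 1.18e-04 and 1.95e-04). Tbx15, a T-box factor of fast fibres, rose by 0.79 ± 0.09 (adjusted p = 8.17e-04). Esrrg, an oestrogen-related receptor of oxidative muscle, fell by 0.78 ± 0.11 (adjusted p = 0.00163). Of 11 denervation and regeneration genes, 3 rose and 2 fell in that fit; Gadd45a rose by 0.68 ± 0.10 (adjusted p = 0.00238) and Ncam1 fell by 0.51 ± 0.08 (adjusted p = 0.00233).

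Markers of other cell types moved between the same muscle pools. Of 11 tendon and fibroblast markers, 9 fell with age, with a median of -0.89. Col1a1 (type I collagen) fell by 1.30 ± 0.14 and Tnmd (tenomodulin of tendon) by 1.15 ± 0.15 (adjusted p = 5.97e-04 and 0.00115). The mean of that list was 10.5 and 10.4 in the young wild type and Myc+/- pools and 9.60 and 9.70 in the old ones. Of 8 adipocyte markers tested, 7 rose and none fell, with Retn up by 1.66 ± 0.17 and Adipoq by 1.42 ± 0.24 (adjusted p = 5.52e-04 and 0.00327). Their mean was 10.2 and 10.1 at 5 months but 11.6 in wild type, against 10.7 in Myc+/-, at 24 months, so the old wild type pool, the lowest in slow fibre genes, was the highest in adipocyte markers.

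Epidermal markers were dim in the young pools: 5 of 10 lay below the muscle filter cutoff of 6.91 in young wild type and 8 of 10 in young Myc+/-. Of the 8 that were tested, 6 lay below it in at least 1 young pool, so no count or test is read from them. Krt5 (a basal keratin) read 7.27 and 5.98 at 5 months and 9.87 and 9.48 at 24 months, wild type first. The mean of the 10 markers was 7.20 and 6.33 at 5 months and 8.82 and 8.52 at 24 months, wild type first. Of 8 hepatocyte markers tested, 1 rose and none fell when genotypes were averaged. The list had means of 8.78 and 7.67 at 5 months and 7.27 and 8.24 at 24 months. This list too was thus highest in the young and lowest in the old wild type pool. The marker that rose, Cyp2e1, was instead highest in the old wild type pool. It read 11.06 and 10.94 at 5 months and 12.56 and 11.20 at 24 months, wild type first. Alb (albumin) read 10.94 and 9.31 at 5 months and 8.78 and 11.14 at 24 months. The part of these cell types in the differences of the slow fibre genes was not tested.

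**Figure D5:**
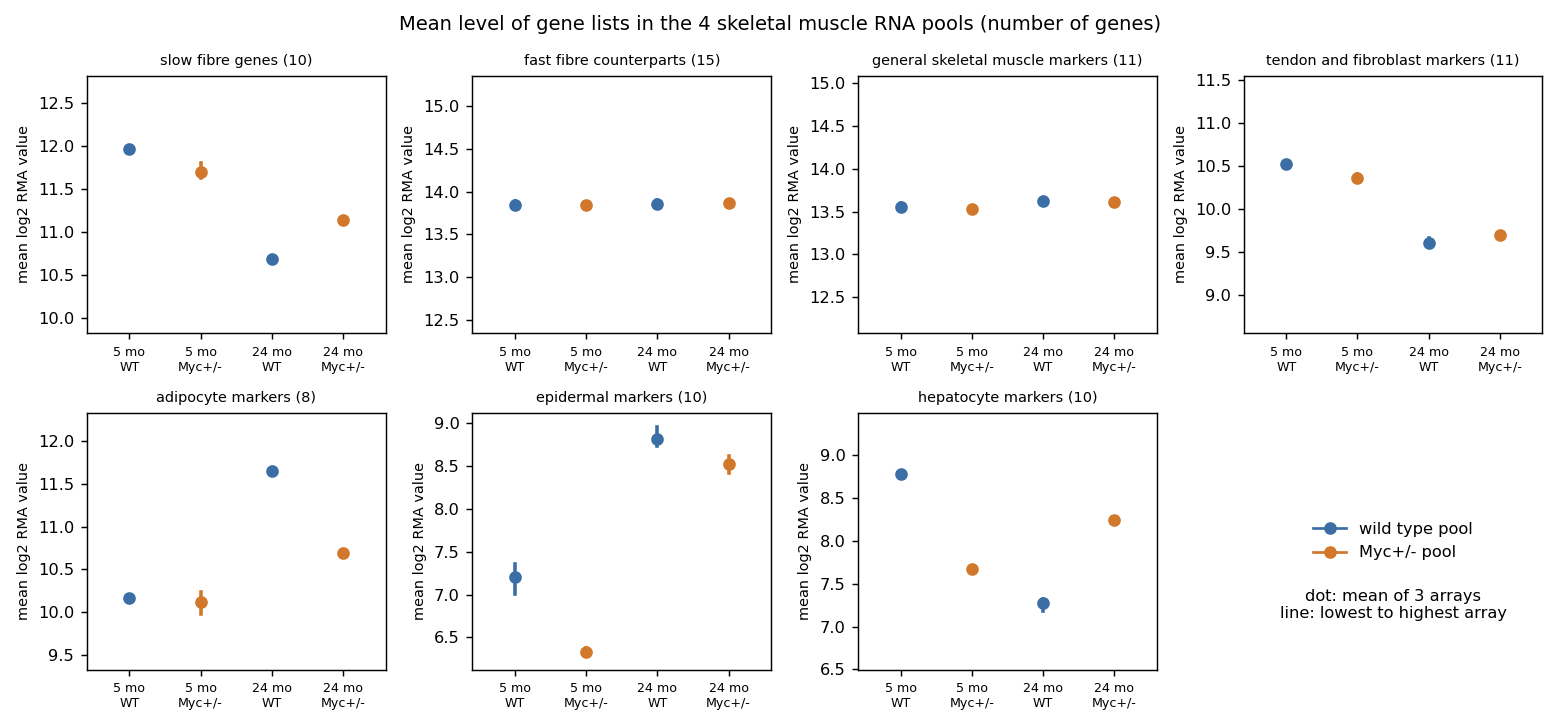
Mean log2 level of the slow fibre genes and of lists of other genes in the 4 muscle pools; dots are means of 3 arrays, lines span the lowest to the highest array, and every panel spans 3 log2 units. The list means of fast and general muscle genes stay level, though single genes such as Myh2 and Tcap do not. Both lists are bright, where differences may be compressed. Tendon markers are lower at 24 months, and adipocyte, epidermal and hepatocyte markers differ between pools of the same tissue.

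Macrophage markers were lower in the old Myc+/- pool. At 24 months 5 of 10 were called lower in Myc+/- by the array-level fit (1.29% of all probe sets were) and all 10 differences were negative (median -0.55). In the difference of age changes 2 of 10 were called negative (1.16% of all) and all 10 were negative (median -0.49). None passed the pool-level test of genotype, where all 10 were negative too (median -0.28). The list mean was 9.54 and 9.49 at 5 months and 9.85 and 9.34 at 24 months, wild type first. Their part in the result for the slow fibre genes was not tested. With age, 1 of 10 macrophage markers, 2 of 8 smooth muscle markers and 0 of 4 nerve markers rose, and none of them fell. The 2 smooth muscle markers were Acta2 and Des. Des is in both lists and was also counted above among the general skeletal muscle markers. Of 7 heart genes tested, 2 rose and 1 fell. Actc1 (cardiac actin) rose by 0.52 ± 0.11 (adjusted p = 0.00881) and Myl4 (atrial light chain) by 0.40 ± 0.11 (adjusted p = 0.0206). Myh6, a cardiac myosin heavy chain and a defining heart gene, fell by 0.36 ± 0.11 (adjusted p = 0.0326). It read 7.53 and 7.34 at 5 months and 6.99 and 7.17 at 24 months, close to the filter cutoff.

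Outside muscle, most members were too dim to test. In liver 3 passed the filter on low values (Tpm3, Atp2a2 and Csrp3), and 2 of them rose with age (30.5% of the 13073 probe sets tested rose). Atp2a2 rose by 0.65 ± 0.12 (adjusted p = 0.00526), the opposite direction to muscle. Its liver means were 11.60 in wild type, against 11.59 in Myc+/-, at 5 months and 12.38 and 12.11 at 24 months. Tpm3 rose by 0.82 ± 0.07 (adjusted p = 2.85e-04) by probe set 10416940. Csrp3 stayed between 8.81 and 8.95 in the 4 liver pools (age difference 0.05 ± 0.31, adjusted p = 0.902). No member differed between genotypes in liver (0% of all did, with 0 members and 1006 probe sets at an unadjusted p under 0.05 by limma). Without either wild type liver pool the rise of Atp2a2 was that of Myc+/- alone, from 11.59 to 12.11.

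In adipose 2 members passed the filter, Tpm3 and Atp2a2. Neither changed with age (26.6% of all probe sets did) or genotype (0.00765% of all did) by limma, with unadjusted p above 0.05 for both. Their age differences were 0.06 ± 0.07 and -0.05 ± 0.12.

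The genes nearest to Myh7 in pattern were sought among 11885 genes, 1 probe set each, by the root mean square distance of the 4 muscle pool means after centring. The nearest were Dbp, a clock-controlled transcription factor, at 0.05 log2 units, St3gal5 at 0.06, and Lrrn1, Lmcd1, Frzb, Mid1ip1, Fhl2, Atp1b1, Col8a1 and Smtnl1 at 0.07 to 0.09. Lmcd1 and Fhl2 are LIM domain proteins of striated muscle, and Atp1b1 is the beta subunit of the sodium pump. Dbp read 11.02 and 10.83 at 5 months and 10.05 and 10.35 at 24 months, wild type first. To the median profile of the 10 members, the nearest were Lgi1 at 0.05, Agbl1 at 0.05, Col12a1 at 0.09, Pcp4l1 at 0.10 and Ldhb, the lactate dehydrogenase subunit of heart and slow muscle, at 0.11. With only 4 pools many genes can share a profile, so these are a description of likeness.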

How the data were processed

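Expression was measured on 36 arrays. The deposited values are log2 values per probe set; per the submitters' processing notes, Affymetrix Expression Console and RMA were used, whose versions are not given in the sources used here. The extraction and labelling protocols name different kits (3' IVT and whole-transcript), so the labelling chemistry is open. Such summarised values compress differences of dim and of very bright probes. No step was redone, and 35556 probe sets were read, of which 21789 had 1 gene symbol.

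The 3 technical arrays of a pool were averaged and limma 3.58.1 (R 4.3.3) was fitted to the 12 pool means with tissue, age within tissue and genotype within tissue (3 residual degrees of freedom, eBayes with trend by intensity, Benjamini-Hochberg over all probe sets tested, threshold 0.05). Tests of age and genotype used probe sets above the 40th percentile of the tissue (13073), and tests between tissues used all 21789. A second limma fit used single arrays (24 residual degrees of freedom, called at 1.5-fold or more); its p-values measure technical spread only. Both fits were tested on simulated data with the same age change in both genotypes and the same pool spread in every tissue. The difference of age changes was not checked in this way. The precision is limited by the number of arrays and pools, and the 3 tissues share the spread of the pool-level fit.

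Members and gene lists were chosen with earlier results of these data known. Named genes are the 10 members, up to 4 per list with the largest age difference in muscle among those past the threshold (otherwise the largest), and the nearest profiles. Promoters came from RefSeq (GRCm38.p6). Figures used matplotlib 3.10.9. Alternatives were other filters, no intensity trend, medians, array centring, single tissues, no minimum fold, a block for replicate number, and leaving out each array number or pool.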

Additional observations from a re-analysis of the deposited data

Results flagged for a closer look

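For 7 members, and for the second Tpm3 probe set, the age change in muscle differed between the genotypes by a test of that difference (array-level limma; Myc+/- change minus wild type change, log2). The difference was 1.56 for Csrp3, 0.89 for Tnni1, 0.83 for Tnnc1, 0.77 for Myl3, 0.69 for Myh7, 0.68 for the Tpm3 probe set 10493633, 0.67 for Tnnt1 and 0.60 for Myl2. In Csrp3 the wild type pools differed by -1.93 and the Myc+/- pools by -0.38. The error of these tests is that of technical arrays, and each group is 1 pool of RNA, so differences between the mice in the pools and an effect of genotype cannot be told apart. With each array number left out in turn, 5 members passed each time, Csrp3, Tnni1, Tnnc1 and Myl3 always among them. Groups had 3 arrays, too few to look for a single outlying array.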

How the results depend on the processing

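The count of members that changed with age in muscle was 9 in the pool-level fit and 6 to 10 over 13 alternatives, and the wild type age count was 8 to 10. Leaving out pools or array numbers gave 6 to 10 members for muscle age, 0 to 1 for muscle genotype (Csrp3, without either 5-month pool), 1 to 2 for liver age (1 without either wild type pool), 3 to 4 for the Myc+/- age change, 0 to 1 for genotype at 5 months (0 without the third arrays), 2 to 3 at 24 months and 5 for the difference of age changes. A fit without 1 pool of a tissue takes its error from the other tissues alone, so counts from such fits, here and below, are a description only. With no minimum fold, 9 members changed with age in Myc+/-, 2 differed at 5 months and 8 at 24 months. Filtering on both tissues left 3 members called against liver and 2 against adipose. The sign of Tpm3 reversed with its probe set (-0.85 by 10493633). Over all probe sets, 5560 changed with age in muscle, against 2447 or 2448 without a wild type pool and 3177 without a Myc+/- pool; for genotype, 63 or 20 passed without a 5- or 24-month pool, against 0. The difference of age changes was called for 253 probe sets, against 410 without the filter, 164 at the 60th percentile and 637 with no minimum fold; genotype at 5 months for 56, against 118, 23 and 165. With no minimum fold the wild type age count went from 1401 to 7114 probe sets, the Myc+/- age count from 1092 to 6364 and genotype at 24 months from 203 to 1248. Muscle against liver went from 14625 to 9702 with the filter on both tissues.

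In muscle, deviations of same-numbered arrays of different pools correlated at -0.09 to 0.49 (median 0.08) and of differently numbered ones at -0.49 to 0.23 (median -0.03). The numbers were not taken to pair the arrays, since not every same-numbered correlation was over 0.1. With the replicate number as a block, 8 members fell in wild type and 4 in Myc+/-, 1 and 3 differed by genotype at 5 and 24 months, and 7 in the age change, the same counts as without it.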
